A study of Mus musculus with 2 samples.

Results

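The collagen-high cells described here are 290 of the 33222 cell barcodes in 2 single-cell libraries of tumours grown from RM-1, a mouse prostate cancer cell line. Members were chosen by their counts: a barcode was taken when it held at least 5000 UMIs (unique molecular identifiers, each counting 1 captured RNA molecule), at most 15% mitochondrial UMIs, at most 1 UMI of Ptprc (the gene of the leukocyte surface protein CD45), and at least 8 UMIs of Col1a1, Col1a2 and Col3a1 together per 10000 UMIs. The vehicle library held 131 members and the RP-6306 library 159. In 283 of the 290 the fibroblast genes Col1a2 and Postn were at or near 0, which goes against the working name fibroblast-like, so the members are called collagen-high cells throughout.

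RM-1 cells were grown under the skin of wild-type C57BL/6 mice that received either vehicle or RP-6306, a compound that inhibits PKMYT1 (a kinase of the cell cycle), and the tumours were taken on day 10. CD45-positive cells were sorted and mixed with tumour cells at 3 to 1, so the share of any cell class in a library was set in part by the sort and the mix. The series text names 2 mice, and each treatment is 1 library made with a SeekOne 3′ kit. With 1 library per group there was no test between treatments, and the 95% intervals given are for counting error only.

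Fibroblasts are the stromal cells that lay down the fibrillar collagens. Col1a1 and Col1a2 encode the alpha 1 and alpha 2 chains that assemble into collagen I, and Col3a1 encodes collagen III. Host fibroblasts are known by the growth factor receptor PDGFRA, the proteoglycan decorin (Dcn) and, when activated in wounds and tumours, the matrix protein periostin (Postn). Epithelial tumour cells are known by the paired keratins Krt8 and Krt18, and cells that have taken on a mesenchymal program can also transcribe collagen genes. In the GRCm38 annotation Col1a1 lies on the plus strand of chromosome 11 at 94936224 to 94953042, Col1a2 on the plus strand of chromosome 6 at 4504814 to 4541544, and Col3a1 on the plus strand of chromosome 1 at 45311538 to 45349706.

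The members were 4.04% (3.39 to 4.78, exact binomial interval) of the 3243 barcodes in the vehicle library that met the depth, mitochondrial and Ptprc limits, and 4.85% (4.14 to 5.64) of 3278 in the RP-6306 library. The other such barcodes, 3112 and 3119, are called collagen-low cells and serve as the comparison. Deep barcodes with more than 1 Ptprc UMI numbered 1769 and 1565 and are called leukocytes here. Library totals were 135415063 UMIs for vehicle and 158073632 for RP-6306. Members were shallower than collagen-low cells, with medians of 13177 and 15771 UMIs against 25492 and 31074, and deeper than leukocytes, with medians of 6896 and 8721. The libraries shared 374 barcode sequences, among them 1 vehicle and 5 RP-6306 members.

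The collagen value that chose the members is a description and not a finding. Its median was 10.8 UMIs per 10000 in vehicle members and 10.9 in RP-6306 members, against 1.82 and 1.56 in collagen-low cells and 0 in leukocytes of both libraries. The members just inside the limit stood at 8.03 and 8.06, the barcodes just outside at 7.999 and 7.997, and 50 and 64 members lay between 8 and 10. The limit therefore ran through a continuous range of values. In the RP-6306 library 7 cells stood far above it, at 86.9 to 536 with a median of 234, while the highest of the other members was 37.0 in the vehicle library and 29.1 in the RP-6306 library.

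**Figure D1:**
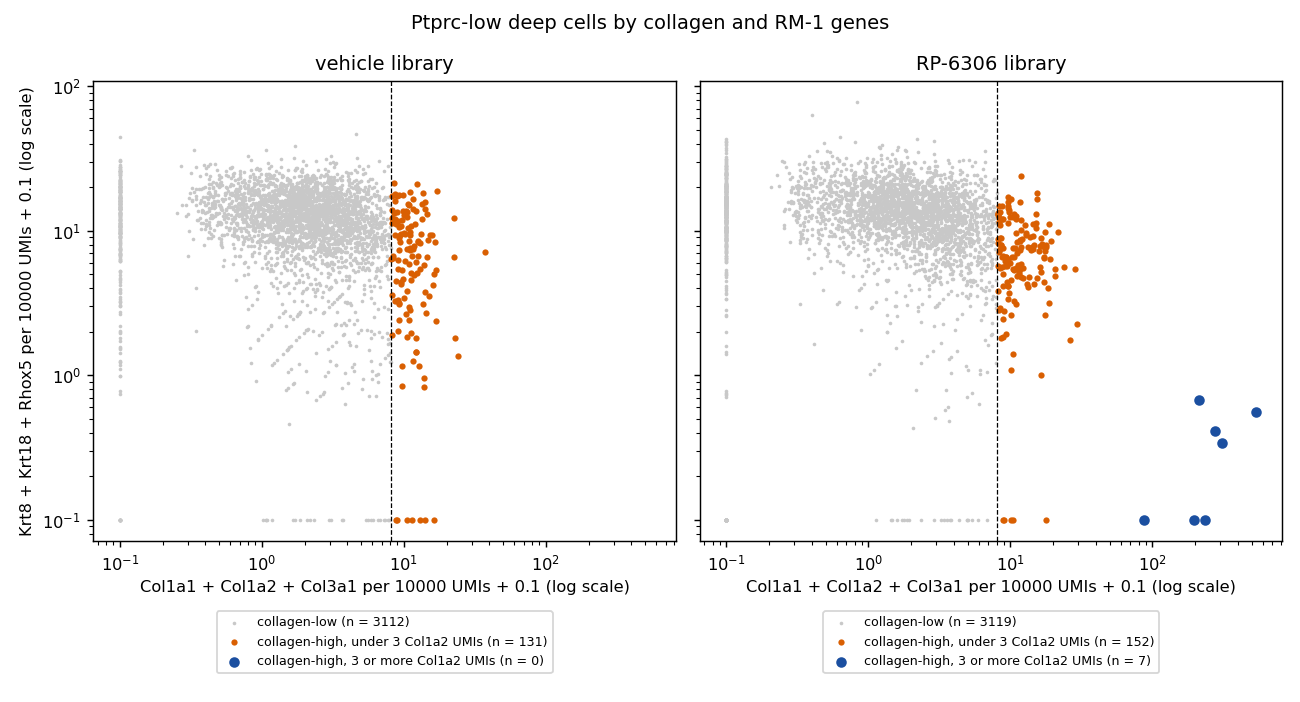
Each point is 1 barcode that met the depth, mitochondrial and Ptprc limits, by library, with the collagens of the rule on the x axis and Krt8, Krt18 and Rhox5 on the y axis, both in UMIs per 10000 UMIs plus 0.1 on log scales. The 7 RP-6306 cells at 86.9 to 536 stand to the right of the other members, the highest of which lie at 37.0 in vehicle and 29.1 in RP-6306.

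Those 7 cells also held the Col1a2 transcript, and the other 283 members in effect did not. In the 7 cells the Col1a2 count was 96, 85, 317, 155, 267, 107 and 394 UMIs. Outside them the highest Col1a2 count in any barcode of either library was 2 UMIs, and the remaining members held 0 Col1a2 UMIs in the vehicle library and 1 in the RP-6306 library. The 7 cells are named Col1a2 cells below, a group set apart after its values were seen, so its values are described with no test. They were 4.40% (1.79 to 8.86) of RP-6306 members and 0 of the 131 vehicle members, where the same interval runs from 0 to 2.78%.

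The Col1a2 cells carried the fibroblast genes that the rule had not used. Postn, at 0 UMIs in the other members of both libraries, counted 14, 14, 193, 40, 325, 41 and 217 UMIs. Col5a2, a chain of collagen V that joins collagen I fibrils, counted 72, 59, 242, 158, 100, 117 and 202. Pdgfra counted 8, 7, 13, 8, 6, 2 and 7, and Dcn 8, 5, 8, 18, 32, 10 and 37. Each of the 7 cells thus had UMIs of all 4 genes, and their summed levels in CPM (UMIs scaled to a common total per set of cells) were 4601 for Postn, 5179 for Col5a2, 278 for Pdgfra and 643 for Dcn.

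Against the 152 other RP-6306 members these were large differences. Postn was at least 3854-fold and Col5a2 at least 4338-fold higher, each against a floor of 3 UMIs over the other members. Pdgfra was higher by 5.32 on the log2 scale (4.69 to 6.48) and Dcn by 5.06 (4.63 to 5.66). The ratios had 1 CPM added to both sides, and the intervals did not. The 25 fibroblast markers summed to 4958 to 17543 CPM per Col1a2 cell, with 13 to 20 of the 25 above 0. The other RP-6306 members had a median of 1092 and a highest value of 2930. On this list the lowest Col1a2 cell was thus above the highest other RP-6306 member. How many of all gene lists part the groups in this way was not counted, so this is a description. Over all 9633 genes with at least 20 UMIs in the contrast with the other RP-6306 members 8.99% were past 2-fold higher and 31.2% past 2-fold lower, with a median of -0.47. Genes such as Postn reached 20 UMIs through the Col1a2 cells alone, so no count of list members past 2-fold is given.

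The matrix genes followed the same order. Biglycan (Bgn), a small proteoglycan, stood at 2284 CPM in the Col1a2 cells and 3.98 in the other RP-6306 members. Fibrillin-1 (Fbn1), the core of elastic microfibrils, stood at 1973 against 4.78 CPM, and Col12a1, which coats collagen fibrils, at 2279 against 31.0. The 19 collagens outside the rule summed to 11852 to 35580 CPM per Col1a2 cell. That was above the other RP-6306 members, which had a median of 1495 and a highest value of 5154. The 28 matrix glycoproteins summed to 24349 to 54779 CPM, against a median of 5371 and a highest value of 16218. The 19 genes that fold and crosslink collagen summed to 3608 to 12662 CPM. They overlapped the other RP-6306 members, which had a median of 3101 and a highest value of 9038.

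**Figure D2:**
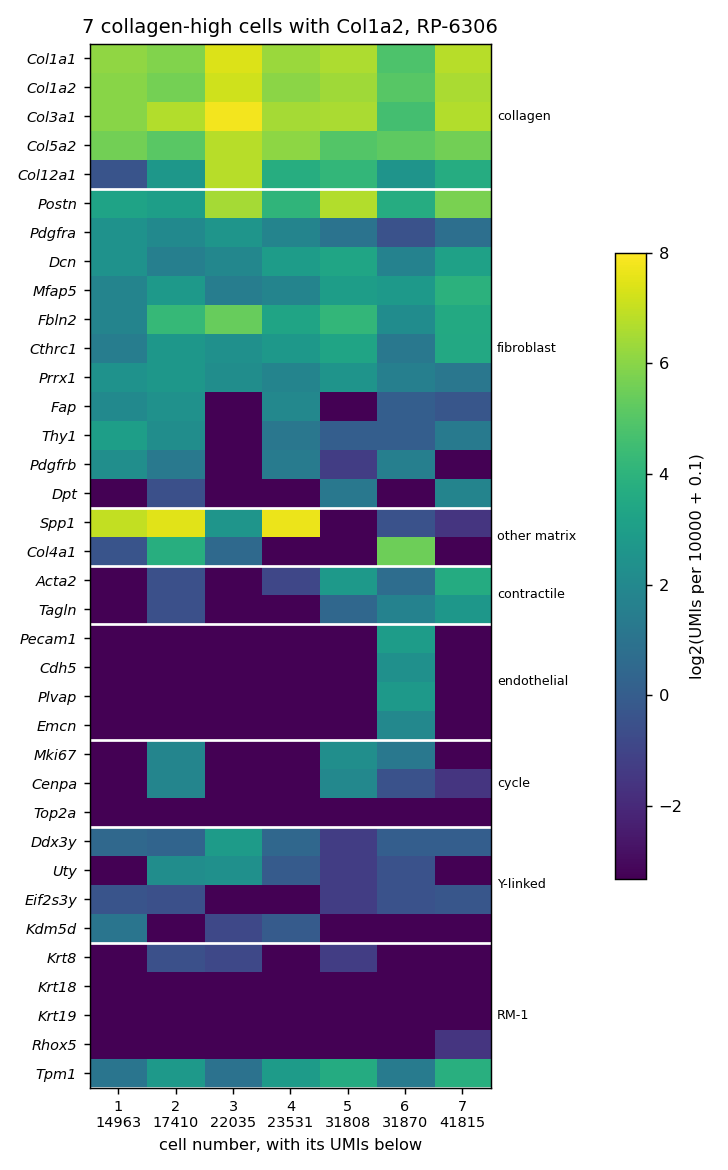
Heat map of selected genes (rows) in each of the 7 Col1a2 cells (columns), coloured by log2 of UMIs per 10000 plus 0.1, with cells numbered by rising depth from 14963 to 41815 UMIs. Collagen and fibroblast genes are present across the cells, though Dpt is in only 3 of the 7. Krt8 sums to 3 UMIs, Krt18 to 0 and Rhox5 to 1.

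Tumour genes were near 0 in the Col1a2 cells. Krt8 summed to 3 UMIs, Krt18 to 0, Krt19 to 0 and Rhox5, a homeobox gene of the X chromosome abundant in these RM-1 libraries, to 1. Krt18 was at least 8.35-fold lower than in the other RP-6306 members, where it stood at 136 CPM, and Rhox5 stood at 5.45 against 441 CPM. Tpm1, which encodes a tropomyosin of actin filaments, did not separate the groups: it stood at 774 CPM in the Col1a2 cells, 781 in the vehicle members and 659 in the other RP-6306 members.

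The Y-linked genes Ddx3y, Uty, Eif2s3y and Kdm5d separated them too. They summed to 6, 11, 28, 7, 3, 7 and 7 UMIs in the 7 cells, or 376 CPM, while Xist, the X inactivation transcript, was at 0. The other members stood at 4.25 CPM in the vehicle library and 2.39 in the RP-6306 library, and collagen-low cells at 1.99 and 1.81. Leukocytes, which come from the host, stood at 182 and 138 CPM. On the Y-linked genes the 7 cells were thus on the leukocyte side and the other 283 on the collagen-low side.

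The 7 cells were not alike. Cell 6, counted by rising depth, carried 14 of the 15 endothelial markers above 0, at 4926 CPM in sum, among them 24 UMIs of Pecam1, 22 of Plvap and 16 of Cdh5, genes of the vessel lining, while the other 6 cells had at most 3 of the 15 and at most 115 CPM. The count of Acta2, the smooth muscle actin of contractile fibroblasts, was 22 and 52 UMIs in the cells numbered 5 and 7 and at most 5 in the rest. Spp1, which encodes osteopontin, was at 184, 314 and 477 UMIs in the cells numbered 1, 2 and 4 and at most 13 in the rest. G2/M genes summed to 2798 CPM in cell 5, 1436 in cell 2 and 1349 in cell 6, and to at most 227 in the others, though Top2a was at 0 in each of the 7. Whether the barcode of cell 6 holds more than 1 cell was not tested.

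Leukocyte markers were at or near 0 in the Col1a2 cells apart from Ebf1, while lists of some other stromal types were not. Of the macrophage markers 12 of 15 were at 0, including Lyz2 and Adgre1, and of the T and NK cell markers 14 of 15. The B cell list stood at 823 CPM, of which the transcription factor Ebf1 gave 812, with Ms4a1 and Cd79a at 0. The cartilage and bone list stood at 12965, 18151 and 20611 CPM in cells 1, 2 and 4, chiefly from Spp1. The highest other RP-6306 member was at 4743. The Schwann cell list, through Ncam1 alone, stood at 230 to 1044 CPM in 5 of the 7 cells. In the other RP-6306 members the median was 0 and the highest value 984. Pericyte and smooth muscle markers reached 1459 CPM in cell 7 and adipocyte markers 1098 in cell 6. The part of these lists in the values above was not tested.

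The class I antigen presentation list was at the low end of the range of the other RP-6306 members. Its 22 genes summed to 3086 to 6605 CPM per Col1a2 cell, where those members had a median of 11832 and ran from 2379 to 22033. H2-K1 stood at 98.1 CPM against 1417 in the other RP-6306 members, H2-D1 at 169 against 1601 and B2m, the shared light chain, at 611 against 3824. The chaperones of the list, which also serve other proteins, stood closer, with Pdia3 at 1210 against 1319 CPM, Canx at 665 against 995 and Calr at 687 against 467.

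The other 283 members held intermediate levels of the tumour genes and low levels of Pdgfra and Dcn. Krt8 stood at 294 CPM in the 131 vehicle cells and 236 in the 152 RP-6306 cells, below the 448 and 487 of collagen-low cells and near the 220 and 292 of leukocytes. Rhox5 stood at 437 and 441 CPM, between the 598 and 642 of collagen-low cells and the 308 and 379 of leukocytes. Leukocyte barcodes held these transcripts unevenly, with Krt8 in 550 of 1769 vehicle barcodes and up to 82 UMIs in 1 of them, so the summed Krt8 of the members does not stand clear of that of leukocytes. Whether such barcodes hold free RNA or a second cell was not tested.

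Counting tumour genes per cell at equal depth gave a clearer separation. Each cell was thinned to 5000 UMIs and called tumour-gene positive with 2 or more UMIs over Krt8, Krt18 and Rhox5. The positive share was 70.2% of 131 vehicle members (61.6 to 77.9) and 75.5% of 159 RP-6306 members (68.0 to 81.9), with 120 of the 152 positive (78.9%) once the Col1a2 cells, none of them positive, were left out. In collagen-low cells the share was 91.4% and 92.9%, and in leukocytes 24.5% and 30.5%. The members therefore lay below collagen-low cells and well above the leukocyte share in both libraries.

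On the fibroblast call the members lay above collagen-low cells, and in the vehicle library the call rested mostly on Dpt. A cell was fibroblast-gene positive with 2 or more UMIs over Pdgfra, Pdgfrb, Dcn, Lum, Dpt, Mfap5 and Clec3b after thinning. The share was 20.6% of vehicle members (14 to 28.6) and 22.6% of RP-6306 members (16.4 to 29.9), against 3.63% and 2.53% of collagen-low cells and 0.791% and 0.703% of leukocytes. Without Dpt, the gene of the matrix protein dermatopontin, the share was 1.53% and 11.3%, and 7.24% of the RP-6306 members when the Col1a2 cells were also left out. In the vehicle library 22 of the 27 fibroblast-positive members were also tumour-gene positive, and in the RP-6306 library 23 of 36. The other 13 RP-6306 cells included the 7 Col1a2 cells, which held all 69 Y-linked UMIs of the 13.

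Among the 283 members several fibroblast genes were above collagen-low cells, from low levels. Dpt stood at 117 CPM in vehicle and 96.3 in RP-6306 members, against 26.0 and 13.2 in collagen-low cells. Pdgfra stood at 11.2 and 5.97 CPM against 4.26 and 2.77, and Dcn at 5.84 and 18.3 against 2.16 and 1.67. Fap, a surface protease of activated fibroblasts, stood at 22.3 and 35.4 CPM against 4.42 and 3.02, and Pdgfrb at 18.1 and 35.0 against 2.96 and 4.82. Set against the Col1a2 cells, Pdgfra and Dcn were far lower in these members. Summed Dpt was at a like level, at 120 CPM (75.2 to 182) in the Col1a2 cells. That value rested on 22 UMIs in 3 of the 7 cells, with 63.6% of them from 1 cell.

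Across the transcriptome the 283 cells differed from collagen-low cells of their own library by a limited set of genes. Of 15349 genes with at least 20 UMIs, 342 (2.23%) were at least 2-fold higher in both libraries and 229 (1.49%) at least 2-fold lower in both. With the Col1a2 cells included the counts were 359 (2.34%) and 230 (1.5%) of 15359. Because members are shallower, the comparison was repeated with collagen-low cells weighted to the same spread of UMIs, which left 90 genes higher and 109 lower. Of these, 86 of the 90 and 60 of the 109 were among the 342 and 229. Depth therefore moved with most of the count, and its part in the remainder was not tested. A list's median in this comparison takes for each gene the smaller ratio of the 2 libraries, or 0 where their signs differ.

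Collagen and matrix genes led the higher side. Col1a1 stood at 332 CPM in vehicle and 378 in RP-6306 members against 33.6 and 31.6, and Col3a1 at 817 and 793 against 173 and 153, as the rule fixed. Beyond the rule, Col6a3, a chain of the beaded-filament collagen VI, stood at 170 and 177 CPM against 53.1 and 46.1, and remained higher by 1.46 and 1.65 on the log2 scale after weighting. Dpt was higher by 2.13 (1.97 to 2.38) in vehicle and 2.78 (2.66 to 3.06) in RP-6306, and by 1.45 and 1.75 after weighting. Fn1, which encodes fibronectin, was higher by 1.07 and 1.47 after weighting. Of the collagens outside the rule 13 of 15 were higher in both libraries, 6 of them past 2-fold, with a median of 0.87 before and 0.63 after weighting. Of the matrix glycoproteins 19 of 20 were higher, 4 past 2-fold, with medians of 0.70 and 0.50, where the median over all genes was 0 in both. Of 17 fibroblast markers 12 were higher in both libraries after weighting, 3 past 2-fold, and 2 were lower, with a median of 0.23. Pericyte and smooth muscle markers, of another stromal cell type, were higher too in 6 of 7, 4 past 2-fold, with medians of 1.47 and 0.85, although Higd1b and Cspg4 were at 0 in these members, and their part in the result was not tested.

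The remaining genes at the high end were not matrix genes as a group. They included Ptn, which encodes the growth factor pleiotrophin, at 59.5 and 141 CPM against 18.0 and 25. The microtubule gene Map2 and the adhesion genes Pcdh9 and Adgrl3 were there too. Genes on the higher side spanned a median of 63.8 kb of genome against 22.8 kb for all genes tested, and 39.2% of them spanned more than 100 kb against 13.5% of all genes. Gene span thus moved with the higher side, and its part in the result was not tested.

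Cell cycle genes were on the lower side, as were macrophage and monocyte markers. In the members the histone gene Hist1h3c stood at 6.91 and 19.5 CPM, against 61.0 and 98.2 in collagen-low cells. Rrm2, a subunit of ribonucleotide reductase, stood at 21.8 and 39.8 CPM against 87.3 and 165, and Birc5, which encodes survivin, at 13.8 and 43.8 against 94.8 and 144. All 30 G2/M genes were lower in both libraries, 23 past 2-fold, with a median of -1.27. After weighting all 30 were still lower, 1 past 2-fold, with a median of -0.68. The weighting matched depth by bin only, with the top bin open from 25000 UMIs. Summed G2/M genes in RP-6306 members and collagen-low cells of 5000 to 10000 UMIs stood at 1488 and 1479 CPM. Between 10000 and 20000 UMIs the values were 371 and 1811, and above 20000 they were 2343 and 3455. In vehicle the same steps were 535 and 1425, 966 and 1056, and 470 and 2638 CPM. The 29 S phase genes had a median of -0.82, and of -0.25 after weighting with 23 of 29 lower. Of 13 macrophage and monocyte markers 12 were lower after weighting, 9 past 2-fold, with a median of -1.22. All 6 antigen-presenting fibroblast genes tested were lower after weighting, 2 past 2-fold, with a median of -0.77. The part of these lists in the result was not tested.

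Tumour genes and a protease inhibitor were also lower, before and after weighting. Serpinb2, which encodes the plasminogen activator inhibitor PAI-2, stood at 10.1 and 6.76 CPM in the members against 65.6 and 61.7, and was lower at -2.06 and -2.44 on the log2 scale after weighting. Krt19, another epithelial keratin, was at -1.13 and -1.67 after weighting. Of 7 RM-1 tumour genes tested 6 were lower in both libraries, 4 past 2-fold, with a median of -1.11, and 2 were past 2-fold after weighting, with a median of -0.80. Interferon-stimulated genes went the other way: 22 of 30 were higher, 8 past 2-fold, with a median of 0.51, and 0 past 2-fold after weighting, with a median of 0.27.

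**Figure D3:**
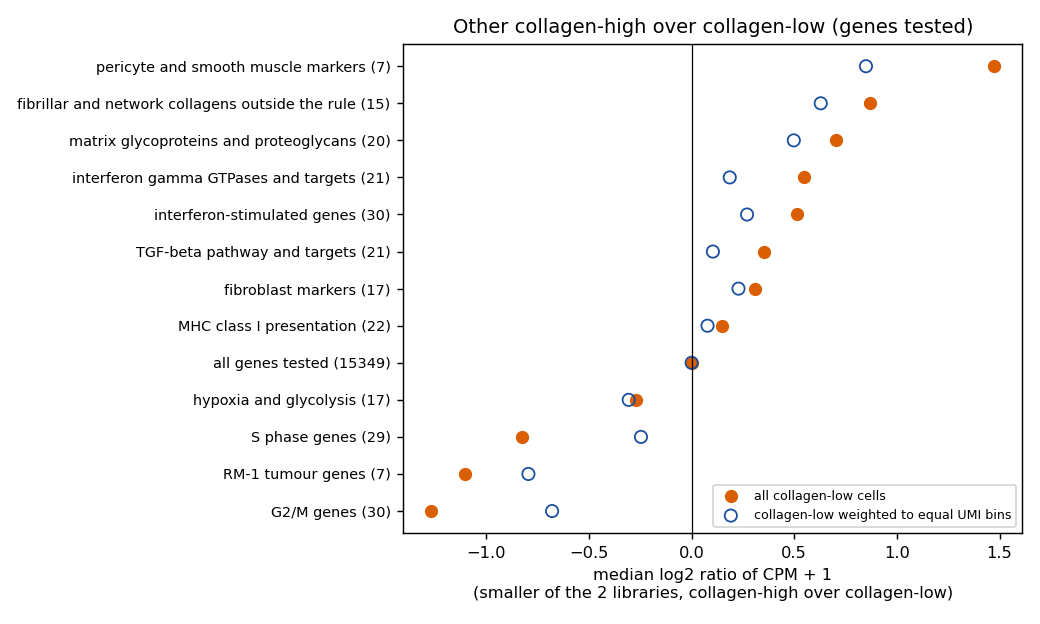
Median log2 ratio of the members without the Col1a2 cells over collagen-low cells, for selected gene lists. For each gene the smaller of the 2 libraries is taken, before and after weighting collagen-low cells to the same UMI bins. Collagens outside the rule keep a median of 0.63 and G2/M genes one of -0.68 after weighting, where all genes stand at 0.

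Sparc and Krt18 ran in order across the whole range of collagen, below the limit as well as above it. In vehicle cells with under 1 collagen UMI per 10000, Sparc, a collagen-binding matrix protein, stood at 689 CPM, and it stood at 1139 between 4 and 8, at 1284 between 8 and 16, and at 1712 in the 11 cells above 16. In the RP-6306 library, without the Col1a2 cells, the same steps were 424, 932, 1305 and 1561 CPM, the last over 28 cells. Krt18 ran downward from 375 to 239, 152 and 48.5 CPM in vehicle, and from 410 to 236, 145 and 83.6 in RP-6306. Both genes kept their direction from the bins below the limit to the bin just above it, with or without the thinly filled top bin of the vehicle library. G2/M genes were lower in the bins above the limit than in those below it. From the lowest bin to the highest they ran in strict order in vehicle, with 2960, 2790, 1911, 1103, 744 and 444 CPM. In RP-6306 they did not, with 3419, 3568, 3234, 2326, 1362 and 1159 CPM. Median depth was lower along the same axis, from 27038.5 to 11691 UMIs in vehicle and from 32626 to 11971.5 in RP-6306, and its part in the order was not tested.

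**Figure D4:**
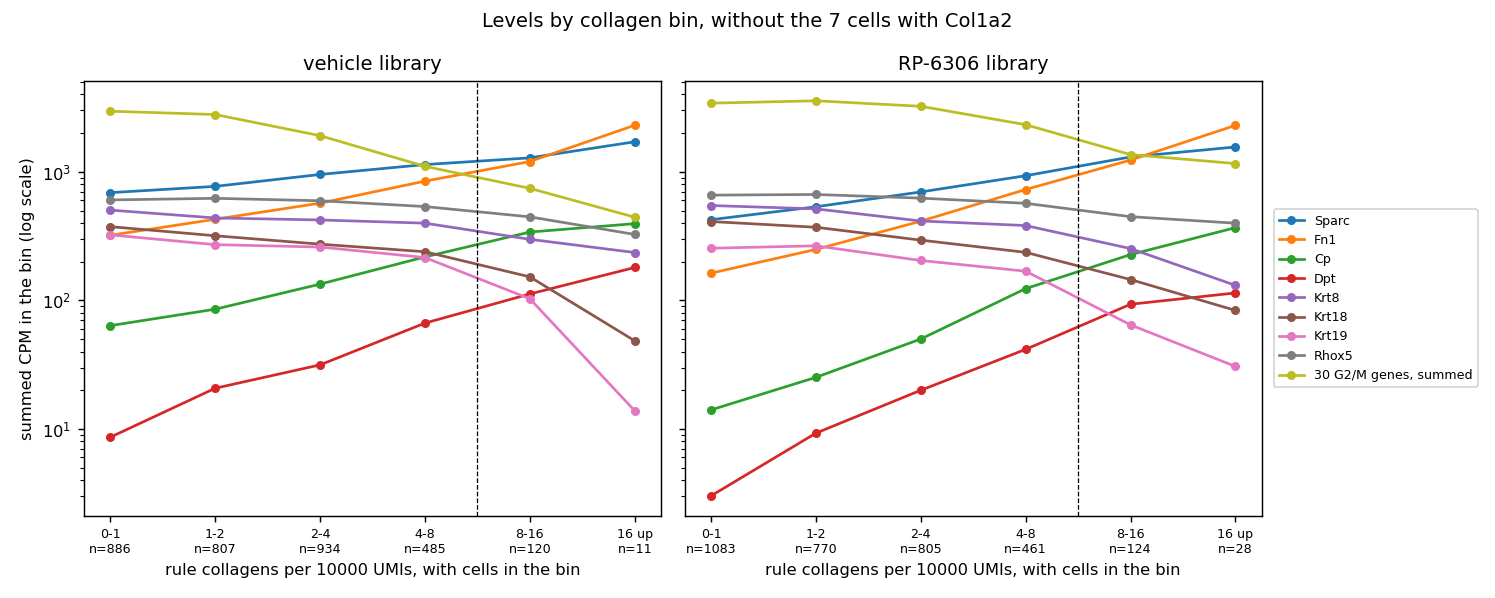
Summed CPM (log scale) of 8 genes and of the 30 G2/M genes in cells binned by collagen UMIs per 10000, by library, without the Col1a2 cells, with a dashed line at the limit of 8. Sparc runs from 689 to 1712 CPM in vehicle and 424 to 1561 in RP-6306, and Krt18 from 375 to 48.5 and 410 to 83.6.

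The question the design puts to these cells is how RP-6306 tumours differed from vehicle tumours, and the answer for all members depended on the 7 Col1a2 cells. Of 10697 genes tested 333 (3.11%) were at least 2-fold higher in RP-6306 members and 237 (2.22%) at least 2-fold lower. Without the 7 cells 184 (1.76%) were higher and 256 (2.44%) lower, of 10480. In collagen-low cells the same comparison gave 10 (0.0579%) higher and 53 (0.307%) lower, of 17267. Those sets summed to 82373854 and 102487236 UMIs, against 1882248 and 2513052 in the members without the 7 cells. The part of that difference in the counts was not tested. Col1a1 stood at 957 CPM in RP-6306 members against 332 in vehicle with the 7 cells, and at 378 against 332 without them. The median of the fibroblast markers was 1.13 with them and 0.35 without, and that of the collagens outside the rule 0.60 and -0.20. Pdgfra stood at 1.07 on the log2 scale (0.41 to 1.92) with the 7 cells and at -0.80 without them. The values below are therefore for the 131 and 152 cells that remain.

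G2/M genes summed over the members were higher in RP-6306, but not at each depth. All 30 were higher, 12 past 2-fold, with a median of 0.87 against 0.04 for all genes, and 25 of 28 S phase genes were higher with a median of 0.45. Mki67, the proliferation marker Ki-67, stood at 53.1 CPM in vehicle and 111 in RP-6306 members, a log2 ratio of 1.05 (0.73 to 1.41), with 22.0% and 17.1% of its UMIs from 1 cell. Ccnb1, which encodes cyclin B1, was higher by 1.94 and Ube2c by 1.69. PKMYT1 holds cyclin B-bound CDK1 inactive by phosphorylating it. Split by depth, the summed G2/M genes stood at 535 CPM in vehicle and 1488 in RP-6306 members of 5000 to 10000 UMIs, and at 470 and 2343 above 20000. Between 10000 and 20000 UMIs, which holds 62 and 80 members, the order was the other way, at 966 and 371 CPM, with Mki67 at 70.5 and 31.1. In collagen-low cells the G2/M median was 0.54 and the S phase median 0.50. Whether the difference between 0.87 and 0.54 exceeds the spread between animals cannot be tested with 1 library per treatment.

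Interferon genes were lower in RP-6306 members. Of the interferon gamma GTPases and targets 15 of 19 were lower, 4 past 2-fold, with a median of -0.68, and of the interferon-stimulated genes 22 of 26, 3 past 2-fold, with a median of -0.22. Tgtp2, an interferon-inducible GTPase, stood at -1.30 on the log2 scale. Outside these lists C3, the central complement component, stood at -1.53. Class I presentation genes went the other way, with 17 of 20 higher, none past 2-fold, and a median of 0.25. In collagen-low cells those medians were -0.32, -0.45 and -0.25, so the class I genes differed in sign between members and collagen-low cells. That difference was not tested.

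Most TGF-beta genes tested were also lower. Of 18 genes of the TGF-beta pathway 13 were lower, 3 past 2-fold, with a median of -0.37 and of -0.42 in collagen-low cells. Smad3, a signal transducer of the pathway, stood at -1.05, Pmepa1, one of its targets, at -1.13 and Ltbp1, which tethers latent TGF-beta to the matrix, at -1.02. Of 9 contractile genes 7 were lower, 1 past 2-fold, with a median of -0.24. That 1 was Acta2, at 67.5 CPM in vehicle and 28.7 in RP-6306 members, with 22.0% and 15.3% of its UMIs from 1 cell. Dcn and Mmp2, a gelatinase, were higher, by 1.5 and 1.49, though Dcn rested on 11 and 46 UMIs.

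Single genes at either end of the ranking are given with the share of cells that held their UMIs. Cdh13, which encodes T-cadherin, stood at 120 CPM in vehicle and 12.3 in RP-6306 members, a log2 ratio of -3.18 (-3.87 to -2.73), with UMIs in 41.2% and 11.8% of cells. Nedd9, a scaffold of integrin signalling, stood at 61.1 and 16.3 CPM, with UMIs in 45.8% and 20.4% of cells. At the high end Ptn stood at 59.5 and 141 CPM, Serpinf1 (pigment epithelium-derived factor) at 81.3 and 183, and Errfi1, a feedback inhibitor of the EGF receptor, at 135 and 295. That no cell gave more than 20% of a gene's UMIs in the higher library was a condition of that rule and is not a finding.

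**Figure D5:**
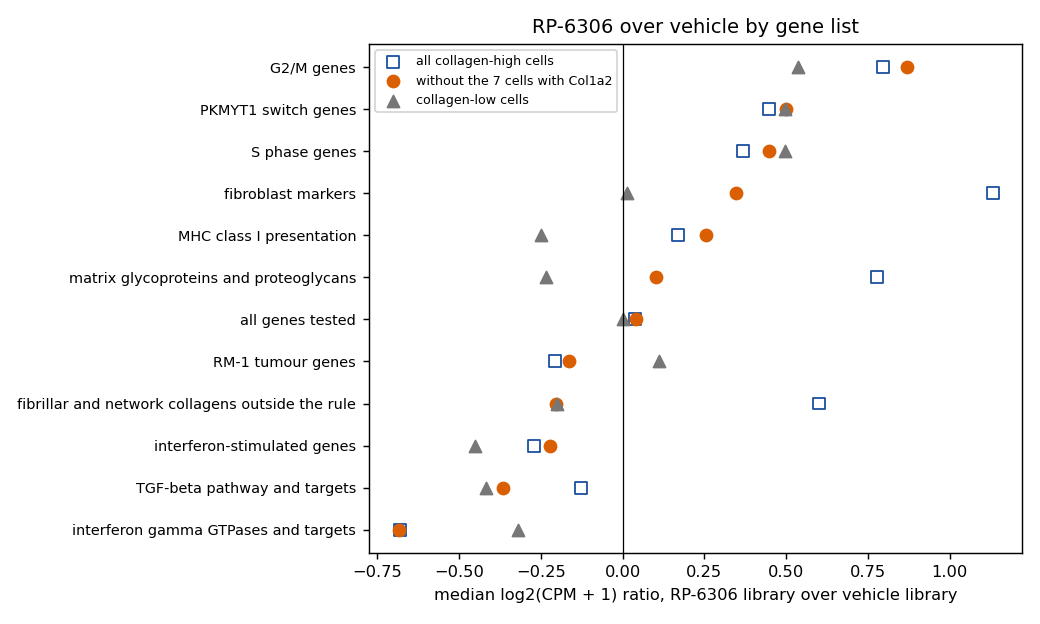
Median log2 ratio of RP-6306 over vehicle for selected gene lists in all members, in members without the Col1a2 cells, and in collagen-low cells. Genes such as Postn and Col5a2 enter the lists of all members through the Col1a2 cells alone. The fibroblast markers stand at 1.13, 0.35 and 0.01, and the G2/M genes at 0.80, 0.87 and 0.54.

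The treatment difference was not uniform within the members. Among cells positive for tumour genes and negative for fibroblast genes, 70 vehicle and 97 RP-6306 cells, all 28 G2/M genes tested were higher in RP-6306, 25 past 2-fold, with a median of 1.48, and 14 of 16 interferon gamma genes were lower, with a median of -0.61. Over all genes of that set 288 of 9538 were past 2-fold higher and 164 lower. Among cells negative for both, 34 and 26, 6 of 20 G2/M genes were higher, with a median of -0.31, while 11 of 11 interferon gamma genes and 17 of 19 class I genes were higher, with medians of 1.16 and 1.06. Many more genes were past 2-fold in this small set, 813 higher and 681 lower of 6191. Among cells positive for both, 22 and 23, 10 of 12 interferon gamma genes were lower, with a median of -1.86, where 187 of 5853 genes were past 2-fold higher and 182 lower. The sign of the interferon gamma and G2/M medians thus differed between sets, which hold few cells of 1 library each, and the difference between sets was not tested. The median over all genes in the 3 sets was 0.06, -0.06 and 0.00.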

How the data were processed

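The authors deposited UMI counts per gene and barcode, with no cell type annotation; the submitters' processing notes name Cell Ranger 2.1.1 and mm10 with no role, and the kit is SeekOne, per the labels. The deposited counts were used without further scaling. The 32285 gene IDs were taken from the files, and 32158 matched the GRCm38 annotation, which gave coordinates and gene span; 7 of 539 listed genes did not match a symbol.

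Member cells, gene lists and the Col1a2 minimum of 3 UMIs were chosen with earlier results of these data known. UMIs were summed per library and set, divided by the set's total (CPM), and compared as log2 ratios after adding 1 CPM, for genes with at least 20 UMIs over the sets compared. A gene counted as past 2-fold at a log2 ratio of 1 or more. Intervals at 95% are exact (conditional binomial for ratios, Clopper-Pearson for shares and for summed CPM) and cover counting error only, since cells are not replicates. Those for ratios were taken without the added 1 CPM, so they are not centred on the printed ratio. The floor for a count of 0 is 3 counts. For shares each cell was thinned to 5000 UMIs with seed 1; each member had at least that many, so none was left out. For the depth-weighted comparison collagen-low cells were weighted to the members over 7 UMI bins. No doublets were removed in the main values; an alternative removed the top 6% of Scrublet scores per library.

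The rule for named genes took the 12 highest and the 12 lowest ratios where the higher side reached 50 CPM and 50 UMIs, had UMIs in 10% or more of its cells and drew no more than 20% of them from 1 cell, plus up to 4 genes per list and 20 fixed genes; not all of them are reported here. Genes named in the Col1a2 cells outside that rule were picked after their values were seen. Comparison and thinning steps were tested on simulated data. Alternatives covered the depth, mitochondrial, Ptprc and collagen limits, the class minimum, thinning, doublets, the gene minimum, the pseudocount and the genes in the total. Software was scanpy 1.11.5 and scipy 1.17.1 with pandas 2.3.3, numpy 2.4.6 and matplotlib 3.10.9 under Python 3.11.15.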

Additional observations from a re-analysis of the deposited data

Results flagged for a closer look

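Ifit3, an interferon-induced antiviral gene, stood out because its difference between the 283 members without the Col1a2 cells and collagen-low cells had opposite signs in the libraries. The log2 ratio was 1.36 in the vehicle library (17.0 against 6.02 CPM) and -1.17 in the RP-6306 library (0.80 against 3.03 CPM). In the vehicle library it rested on 32 UMIs in 4 cells, 62.5% of them from 1 cell, and in the RP-6306 library on 2 UMIs. The difference between libraries was not tested.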

How the results depend on the processing

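No paired analysis was possible because each treatment is 1 library and the labels give no numbers that pair them. With the collagen minimum at 16 per 10000 the members were 0.339% of the eligible vehicle barcodes and 1.07% of the RP-6306 ones, the tumour-gene share in RP-6306 was 54.3%, the fibroblast-gene shares were 36.4% and 40%, RP-6306 against vehicle gave 670 genes higher and 522 lower, and members against collagen-low cells gave 649 and 936. With 1 class UMI the tumour shares in vehicle and RP-6306 were 85.5% and 89.9% and the fibroblast shares 42.7% and 44.7%; with 4 they were 47.3%, 47.2%, 2.29% and 8.81%; without thinning 87.0%, 90.6%, 45.8% and 52.8%. Without Dpt the fibroblast shares were 1.53% and 11.3%. RP-6306 against vehicle in all members gave 919 higher and 971 lower with at least 1 UMI, 76 and 76 with at least 100, 111 and 52 with 10 CPM added, and 184 higher without the Col1a2 cells. Members against collagen-low cells gave 86 higher and 74 lower with 10 CPM added, and 101 and 114 when weighted to equal UMI bins. Pdgfra, higher in all RP-6306 members than in vehicle members, was at -0.80 without the Col1a2 cells. The cause of these moves was not tested. No share and no count moved by that much with a minimum of 8000 UMIs, a mitochondrial limit of 10% or a Ptprc limit of 0. Nor did any with removal of doublets, a mean over cells, or totals without collagen, mitochondrial and ribosomal genes. Medians of gene lists over all members did move. With a mean over cells 12 of 23 moved past counting error for RP-6306 over vehicle, and 15 of 28 for members over collagen-low cells. In sign 21 of the 23 and 26 of the 28 were unchanged. With Ptprc at 0, 10 of 23 and 9 of 28 moved. With the collagen minimum at 16, 14 of 20 and 19 of 28 kept their sign. Depth limits the rare transcripts: at about 13177 to 15771 UMIs per member, Pdgfra rested on 21 and 15 UMIs over the 283 cells.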

Other observations

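Values of some chemokine and stress genes from the comparisons above are given here. Chemokine genes were mixed between RP-6306 and vehicle members. Most hypoxia and unfolded protein genes were lower in members than in collagen-low cells after weighting. Cxcl1, a neutrophil chemokine, stood at 358 CPM in vehicle members and 596 in RP-6306 members without the Col1a2 cells, a log2 ratio of 0.73 (0.60 to 0.87), with at most 8.32% of its UMIs from 1 cell. Of 12 chemokine genes tested 5 were higher and 7 lower, with a median of -0.06. Of 17 hypoxia and glycolysis genes 13 were lower in members than in collagen-low cells of both libraries, with a median of -0.27, and 15 of 17 after weighting, with a median of -0.31. Of 17 unfolded protein and stress genes 16 were lower after weighting, with a median of -0.24.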
